A study of Mus musculus with 13 samples.

Results

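The region around the gene Sox9 on mouse chromosome 11 held 95 of the 45096 Sox9 peaks that were listed for cartilage cells of the rib and of the nasal septum. Peaks were taken as members when their centre lay between 110940000 and 113100000 (mm9), the gene-poor stretch of 2.16 Mb between Kcnj2 and Slc39a11. The rib list gave 63 members of 27656 peaks, of which 3 belonged to the part named Class I (6794 peaks in all) and 60 to the part named Class II (20862). The nasal list gave 32 members of 17440 peaks. Distances below run from the centre of a peak to the Sox9 start, taken at 112643500 on the plus strand. That position is rounded, and the gene ends at about 112649100. The region thus reached 1704 kb upstream and 456.5 kb downstream of the start.

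Sox9 is an HMG-box transcription factor without which chondrocytes, the cells of cartilage, do not form or lay down cartilage matrix. The gene sits in a large stretch with few other protein-coding genes, and enhancers spread far over that stretch are known to drive it in separate tissues, among them cartilage, the face and the testis. In humans, chromosome breaks and deletions there, outside the coding sequence, are known from campomelic dysplasia, a skeletal disorder, and from Pierre Robin sequence, a disorder of the jaw and palate. Sox9 protein is also known to act on its own gene. In the GRCm38.p6 annotation of RefSeq, 16 other genes stand between Kcnj2 and Slc39a11, and 14 of them are long non-coding RNAs. The others are the pseudogene Gm11675 and the predicted protein-coding gene Gm11677. Their positions are on another build than the peaks and were not used.

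The rib library came from chondrocytes of untreated wild-type ICR mice at postnatal day 1, and the nasal library from nasal septum chondrocytes of the same kind of mice at embryonic day 17.5. Both sets of cells were freed by enzyme digestion, fixed and precipitated with an antibody against Sox9 (Millipore AB5535). The series holds 13 libraries, 11 of rib and 2 of nasal septum, with 1 library for each antibody or control and tissue, and only the 2 Sox9 libraries have peak lists that were used here. Tissue and stage differ together between the lists, no replicate exists, and the labels do not say whether animals were pooled. The lists give positions without heights, so the read depth and the strength of each peak are unknown. No test between the tissues was therefore possible. Intervals below are 95% exact intervals that cover counting error alone and take peaks as independent, which neighbouring peaks may not be.

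**Figure D1:**
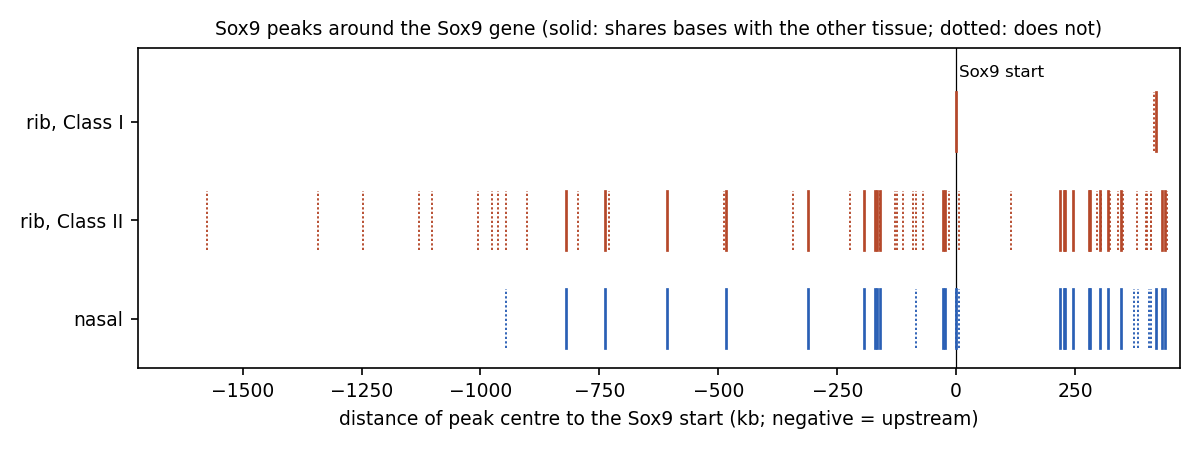
Every Sox9 peak of the region by its distance to the Sox9 start (kb, negative upstream), with rib Class I, rib Class II and nasal peaks in 3 rows. Solid marks share at least 1 bp with a peak of the other tissue and dotted marks do not; rib peaks reach 1575 kb upstream and nasal peaks 946 kb.

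Peaks were dense around Sox9 although the stretch has few genes, and nearly all of the rib peaks were of Class II. The region held 29.2 rib peaks per Mb (95% Poisson interval 22.4 to 37.3), against 16.3 on chromosome 11 and 11.4 on all autosomes. It held 14.8 nasal peaks per Mb (10.1 to 20.9), against 11.4 on chromosome 11, which lies within that interval, and 7.21 on all autosomes. The density was uneven, with 8.53 rib and 0 nasal peaks per Mb over 1 Mb upstream. Among 1101 stretches of the same length laid end to end along the autosomes, 49 (4.45%) had at least 63 rib peaks and the median was 21. For the nasal list, 151 of these stretches (13.7%) had at least 32 peaks and the median was 12.

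The mix of the classes in the region was not that of the whole list. Class I held 3 of the 63 rib peaks, or 4.76% (0.993% to 13.3%), while it held 24.6% of the whole rib list. In density, Class I came to 1.39 peaks per Mb in the region (0.286 to 4.06), 5.20 on chromosome 11 and 2.80 on the autosomes, the last within the interval of the region. At least 3 Class I peaks stood in 698 of the 1101 stretches (63.4%), where the median was 4. Class II came to 27.8 peaks per Mb in the region (21.2 to 35.8), 11.1 on chromosome 11 and 8.62 on the autosomes. The low share of Class I thus stood beside a Class I count near the median stretch and a high Class II count. Only 14 of the 1101 stretches (1.27%) had at least 60 Class II peaks, where the median was 16. The sources used here do not say how the classes were drawn. The region was picked for having few genes, so a class drawn by distance to genes and a property of this region cannot be told apart.

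The 3 Class I peaks lay at the Sox9 start and at the downstream end of the region. The first, at 112643437 to 112643620, covered the start itself and stood at place 5374 of the rib list. A nasal peak at 112643482 to 112643625, place 2804 of the nasal list, shared 139 bp with it and covered the start as well. The nasal list is shorter, so places here and below are not on one scale. These were at 19.4% of the rib list and 16.1% of the nasal list. The other Class I peaks stood 417 kb and 420 kb downstream, at 113060057 to 113060172 and at 113063067 to 113063152, with places 16973 and 5996. Of these, only the peak at 420 kb was met by a nasal peak, which shared 62 bp with it. Nasal peaks thus overlapped 2 of 3 Class I peaks, a number too small to set against the 68.8% of the whole Class I list.

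Close to the gene, both lists had few peaks by count, on a short stretch of 20 kb. Within 10 kb of the start lay 2 rib and 3 nasal peaks, or 100 and 150 per Mb, numbers too small to rank the lists. Beside the pair at the start, the nasal list had a peak at 112642833 to 112643107, centred 0.53 kb upstream, whose edge was 329 bp from the rib Class I peak. Past the end of the gene, a rib Class II peak at 112649732 to 112649846 and a nasal peak at 112649196 to 112649279 lay 452 bp apart without sharing a base. Both peaks stood late in their lists, at place 23375 of the rib list and 15711 of the nasal list. By its centre, only the peak at the start fell within the gene in either list.

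The nearest stretch upstream carried a pair that was listed early in both tissues. At 23.9 kb upstream, a rib peak at 112619536 to 112619688 held place 185 of 27656, and the nasal peak over it, at 112619527 to 112619695, held place 367 of 17440. The nasal peak covered all 153 bp of the rib peak, and their centres were 1 bp apart. At 26.7 kb upstream a second pair shared 164 bp, with places 9951 in rib and 12495 in nasal. A rib peak 15.1 kb upstream, place 12461, was the nearest rib peak upstream of the start and lay 8.65 kb from the nearest nasal peak. Farther out, 84.2 kb upstream, a rib peak of 77 bp at place 794 and a nasal peak of 140 bp at place 6722 missed each other by 89 bp. Rib peaks 70.7 kb and 90.2 kb upstream, at places 23373 and 5957, met no nasal peak.

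Between 100 and 250 kb upstream the rib list had 10 peaks, all of Class II, and the nasal list 4, each of which overlapped a rib peak. Of the whole nasal list, 68.2% did, and 4 peaks are too few to set against that share. The earliest-listed peak of the region stood in this stretch in both tissues. It lay 194 kb upstream, at 112449691 to 112449837 in rib, place 27, and at 112449710 to 112449880 in nasal, place 281, with 128 bp shared. A run of 5 rib peaks followed from 112472543 to 112483330, or 171 to 160 kb upstream, with 3 nasal peaks in it. The rib peaks at 171 and 166 kb held places 469 and 635, and their nasal partners places 2182 and 1198. The third pair of the run was narrow in both lists, with 30 bp in rib and 27 bp in nasal and 24 bp shared, at places 4958 and 3266. As shares of their lists, these places were 17.9% in rib and 18.7% in nasal. Peaks of at most 30 bp were few, 410 in the whole rib list and 261 in the whole nasal list. A rib peak stood on each side of that narrow peak, 0.145 and 0.229 kb away, and neither met a nasal peak. The other rib peaks of this stretch, 112, 125, 128 and 224 kb upstream, lay 28.0 to 35.8 kb from the nearest nasal peak.

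Farther upstream the peaks thinned out, and the nasal list ended before the rib list did. From 250 to 500 kb upstream there were 4 rib and 2 nasal peaks. One pair, 483 kb upstream, was listed very early in rib and later in nasal, at place 154 (112160391 to 112160593) and place 5858 (112160264 to 112160625). The nasal peak, 362 bp wide, covered the whole rib peak of 203 bp. The other pair, 312 kb upstream, held places 3215 in rib and 3610 in nasal. From 500 kb to 1 Mb upstream there were 9 rib and 4 nasal peaks, of which 3 on each side overlapped. These pairs lay 608, 738 and 820 kb upstream, with places 8629, 2994 and 2586 in rib and 2911, 7413 and 16205 in nasal. A rib peak 946 kb upstream, place 2216, missed the farthest nasal peak by 94 bp, and that nasal peak stood near the end of its list, at place 17213.

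Beyond 1 Mb upstream only rib peaks were listed. There were 6, all of Class II, in 704 kb, at 1004, 1101, 1129, 1246, 1342 and 1575 kb. Their places ran from 4855 to 25627, and the earliest of them lay 1101 kb upstream, at 111542041 to 111542273. That peak stood at 17.6% of the rib list and the others at 57.8% to 92.7%. In the whole rib list, nasal peaks overlapped 41.5% of Class II peaks from 10% to 50% of the list and 15.4% of those past 50%. The nearest nasal peak was 58.5 kb away from the closest of these 6 rib peaks and 629 kb away from the farthest. The first 758 kb of the region from its upstream border held no nasal peak. Since heights are unknown, a nasal signal below the threshold of the list cannot be told apart from none.

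Downstream of the gene lay a nearly empty stretch and then the zone with most peaks by count, 26 rib and 16 nasal on 356.5 kb. Per Mb, this zone had 72.9 rib and 44.9 nasal peaks, against 66.7 and 33.3 from 10 to 100 kb upstream. Within 10 kb of the start these values were higher, 100 and 150, from 2 rib and 3 nasal peaks. No nasal peak was listed for 213 kb, from 5.78 kb to 219 kb downstream, and the rib list had 2 peaks there, the one 6.29 kb downstream beside the gene and one 116 kb downstream at place 16971. From 10 to 100 kb downstream neither list had a peak. Beyond it, between 219 kb and 444 kb downstream, 25 rib peaks followed each other with gaps of at most 50 kb, and the 16 nasal peaks of that stretch ran from 219 kb to 439 kb. The stretch started with 6 pairs among 7 rib and 6 nasal peaks in the bin from 200 to 300 kb. The bin from 300 to 400 kb held 10 rib and 5 nasal peaks, of which 3 overlapped. The part of the bin from 400 to 500 kb that lies in the region held 8 rib and 5 nasal peaks, of which 3 overlapped. In the whole lists, 42.8% of rib peaks and 68.2% of nasal peaks overlapped a peak of the other tissue. The bins hold too few peaks to be ranked by overlap.

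**Figure D2:**
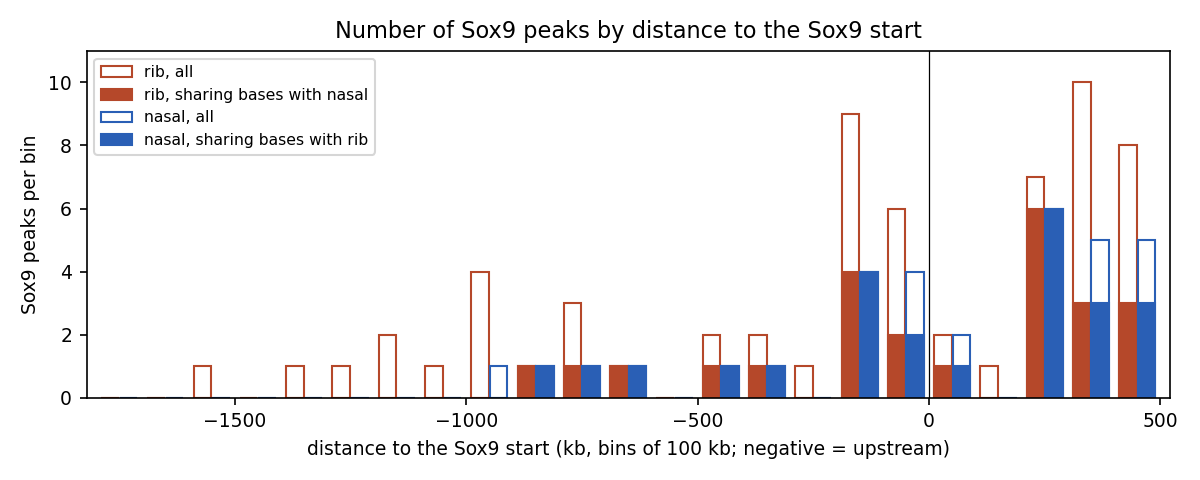
Number of Sox9 peaks in bins of 100 kb by distance to the Sox9 start, rib bars on the left and nasal bars on the right of each bin, with the filled part for peaks that share bases with the other tissue. The outermost bins lie partly outside the region; the fullest bin is 300 to 400 kb downstream, with 10 rib and 5 nasal peaks.

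Early-listed pairs occurred downstream as well. The rib peak 439 kb downstream, at 113082739 to 113082876, held place 482 and its nasal partner, at 113082763 to 113082929, place 1251. The rib peak 219 kb downstream, at 112862457 to 112862567, held place 532. Its nasal partner, at 112862132 to 112862612 and place 5106, was the widest nasal peak of the region with 481 bp and covered all 111 bp of the rib peak. At 281 kb downstream a pair held places 1678 in rib and 4521 in nasal. At 303 kb downstream a rib peak at place 1263 met a nasal peak of 434 bp that stood near the end of its list, at place 17332. A rib peak 410 kb downstream, place 553, had no partner, but a nasal peak at place 17108 began 276 bp away. The widest rib peak, 457 bp at 112993512 to 112993968, lay 350 kb downstream at place 10119 and met no nasal peak.

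Over the whole region, whose upstream side reaches farther from the gene, peaks were denser downstream of the start than upstream. Upstream lay 35 rib peaks, or 55.6% (42.5% to 68.1%), and 14 nasal peaks, or 43.8% (26.4% to 62.3%), on 78.9% of the length of the region. The density was 20.5 rib peaks per Mb upstream and 61.3 downstream, and 8.22 nasal peaks per Mb upstream and 39.4 downstream. Within 456.5 kb on either side, 18 rib peaks lay upstream and 28 downstream, and 9 nasal peaks upstream and 18 downstream. The share upstream in that window was 39.1% (25.1% to 54.6%) in rib and 33.3% (16.5% to 54.0%) in nasal. Both intervals hold 50%, the part of that window that lies upstream. Nasal peaks overlapped 11 of the 35 upstream rib peaks, or 31.4% (16.9% to 49.3%), and 13 of the 28 downstream ones, or 46.4% (27.5% to 66.1%). These intervals cover each other, and the difference between the sides was not tested.

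Overlap between the tissues was close to that of the whole lists. Nasal peaks shared at least 1 bp with 24 of the 63 rib peaks, or 38.1% (26.1% to 51.2%), where the whole rib list had 42.8%. Rib peaks overlapped 24 of the 32 nasal peaks, or 75.0% (56.6% to 88.5%), where the whole nasal list had 68.2%. In Class II, the overlap was 22 of 60, or 36.7% (24.6% to 50.1%), where the whole class had 34.4%. Each of the 24 peaks met a single partner. Their centres were a median of 37.2 bp apart in the region and 35 bp in the whole lists, with 17 of the 24 pairs within 50 bp, or 70.8% (48.9% to 87.4%), against 63.2% of all pairs.

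Nasal peaks without a partner lay closer to the other list than rib peaks without one, in the region and in the whole lists, of which the rib list is the longer. All 8 nasal peaks without a rib partner lay within 6.60 kb of a rib peak, and 5 of them within 1 kb. The other three, 374, 383 and 406 kb downstream, stood in the dense downstream stretch. Of all nasal peaks without a partner, 52.8% had a rib peak within 10 kb and 31.0% within 1 kb. Of the 39 rib peaks without a nasal partner, 8 lay within 1 kb of a nasal peak and 17 more than 10 kb from any, with a median gap of 7.60 kb. Thus 22 of the 39 had a nasal peak within 10 kb, or 56.4% (39.6% to 72.2%), against 35.9% of all rib peaks without a partner. Within 1 kb, it was 20.5% (9.30% to 36.5%) in the region, against 12.4% of all rib peaks without a partner. A rib peak thus lay within 10 kb of each of the 32 nasal peaks, where 85.0% of the whole nasal list had one. A nasal peak lay within 10 kb of 46 of the 63 rib peaks, or 73.0% (60.3% to 83.4%), where 63.4% of the whole rib list had one. Taken over the whole region, peaks of either list were denser than on the autosomes, and the part that density takes in these shares was not tested.

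The median peak of the region stood before the midpoint of its list in both tissues. The sources used here do not say what the order of the lists stands for, so place is a description within each list. The median place was at 36.4% of the list for the 63 rib peaks and at 37.4% for the 32 nasal peaks, where the midpoint of any list is 50%. The first 50% of the rib list held 35 of the 63, or 55.6% (42.5% to 68.1%), and the first 50% of the nasal list 19 of the 32, or 59.4% (40.6% to 76.3%), against 50.0% of either whole list. The first 10% of the rib list held 13 of the 63, or 20.6% (11.5% to 32.7%), against 10.0% of all rib peaks. The first 10% of the nasal list held 4 of the 32, or 12.5% (3.51% to 29.0%), against 10.0% of all nasal peaks. The intervals of the 2 tissues cover each other in both parts of the lists. Class II peaks of the region had a median place at 36.5% of the rib list, and Class II peaks of the whole list one at 45.7%. Class II, which made up 60 of the 63, thus stood before the midpoint in the whole list too. Within Class II, the first 10% of the rib list held 13 of 60 in the region and 2544 of 20862 in all. The first 50% held 33 of 60 in the region and 11306 of 20862 in all.

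Peaks listed early met a peak of the other tissue more often than peaks listed late, in the region and in the whole lists alike. Of the 13 Class II peaks in the first 10% of the rib list, nasal peaks overlapped 10, or 76.9% (46.2% to 94.96%), where Class II peaks of that part of the whole list had 81.1%. From 10% to 50% of the list, nasal peaks overlapped 9 of 20, or 45.0%, where the whole list had 41.5%. In the second part of the list, past 50%, they overlapped 3 of 27, or 11.1% (2.35% to 29.2%), where the whole list had 15.4%. For nasal peaks, rib peaks overlapped 4 of 4 in the first 10%, 13 of 15 from 10% to 50% and 7 of 13 past 50%, where the whole nasal list had 93.1%, 79.7% and 54.1%. The shares of the region thus lay near those of the whole lists at each step. The 13 earliest rib peaks all had a nasal peak within 1 kb, where 84.9% of the first 10% of the rib list had one. The 4 earliest nasal peaks all had a rib peak within 1 kb, where 96.7% of the first 10% of the nasal list had one.

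**Figure D3:**
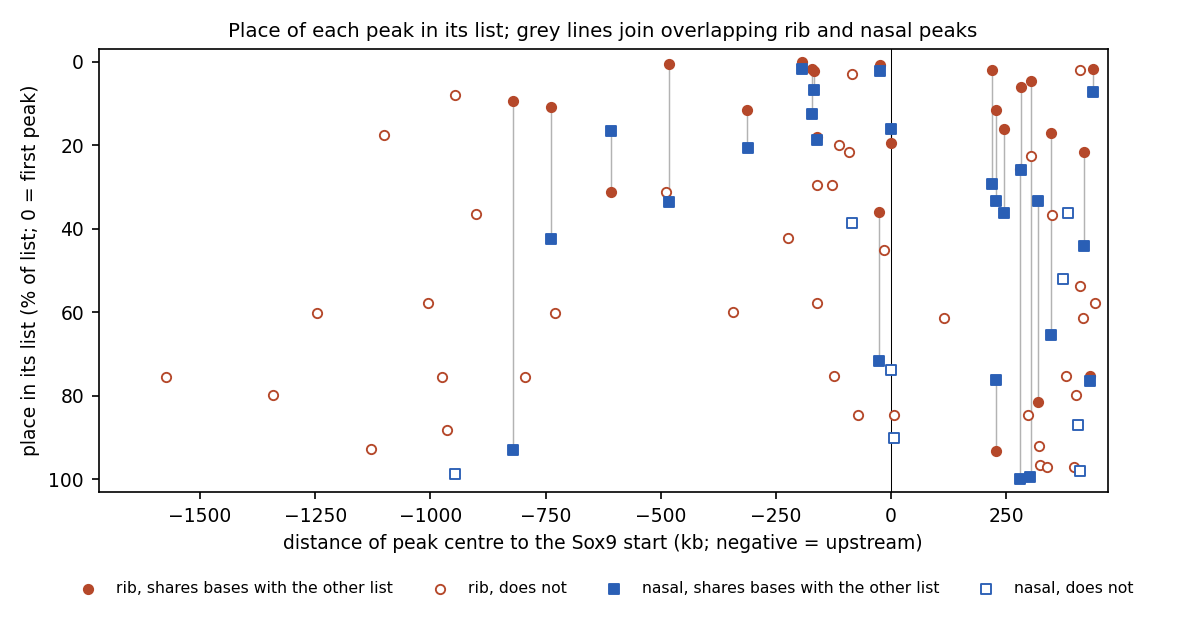
Place of each peak in its list (% of the list, first peak at the top) against distance to the Sox9 start (kb), rib as circles and nasal as squares, filled where the peak shares bases with the other list, with a grey line joining each of the 24 pairs. In 20 pairs the rib peak stands higher than its nasal partner; the pair at 194 kb upstream is near the top for both tissues.

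Most of the 5 earliest sites were the same in both tissues. The 5 earliest rib peaks, with places 27, 154, 185, 469 and 482, lay 194, 483 and 23.9 kb upstream, then 171 kb upstream and 439 kb downstream. The 5 earliest nasal peaks, with places 281, 367, 1198, 1251 and 2182, lay 194, 23.9 and 166 kb upstream, then 439 kb downstream and 171 kb upstream. They share 4 sites. The rib list had the site 483 kb upstream in place of that at 166 kb, where the rib peak held place 635. Other early rib peaks, at places 532, 1263, 1678 and 2586, had nasal partners at the later places 5106, 17332, 4521 and 16205. Those at places 553, 794 and 2216 had none. How often the earliest sites of the whole lists are shared was not computed. Counted as a share of the list, the rib peak stood earlier than its nasal partner in 20 of the 24 pairs (83.3%), against 55.9% of the 11847 pairs of the whole lists. The whole-list value mixes both classes, while 22 of the 24 rib peaks here were of Class II. In the whole rib list, overlapped Class II peaks had a median place at 21.3% and overlapped Class I peaks one at 54.6%. The share among Class II pairs alone was not computed. In the region, the nasal peak stood earlier in 4 pairs, at the Sox9 start, 608 kb upstream, and 227 and 319 kb downstream. The widest gap was that of the pair 303 kb downstream, 94.8 percentage points. Across the 24 pairs, the places had a Spearman correlation of 0.517, and 0.384 across all pairs, given as a description over sites that share their 2 libraries.

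Peaks of the region also stood in chains, runs of at least 3 peaks with gaps of at most 10 kb between neighbours. The 8 rib chains held 29 of the 63 peaks, or 46.0%, where chains held 28.3% of the whole rib list. The 4 nasal chains held 12 of the 32 peaks, or 37.5%, where they held 19.1% of the whole nasal list. No interval is given, since peaks enter chains together, and closer peaks make more chains by construction, so these shares and the density of the region cannot be told apart. Upstream there were 2 rib chains, the run of 5 described above and a run of 3 from 112616671 to 112628446. The other 6 lay downstream. The longest, of 6 peaks over 21.6 kb from 113041543 to 113063152, held both downstream Class I peaks and 3 nasal peaks. The chain from 112862457 to 112872496, 219 to 229 kb downstream, was the only rib chain in which each of the 3 peaks met a nasal peak. The chains from 112940256 to 112947381, from 112962800 to 112967301 and from 112982922 to 112993968 had 3 rib peaks and 1 nasal peak each. The last, from 113076100 to 113087331, had 3 rib and 2 nasal peaks. One nasal chain, of 3 peaks from 112642833 to 112649279, spanned the Sox9 gene, where the rib list had no chain.

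**Figure D4:**
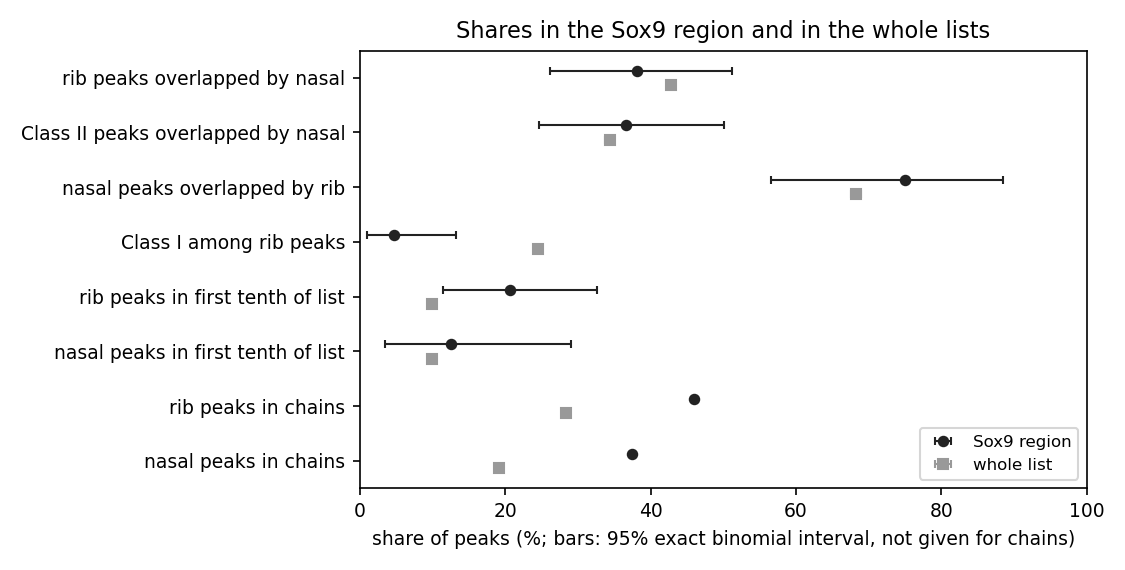
Shares of peaks (%) in the Sox9 region (black circles, above) and in the whole lists (grey squares, below), with 95% exact binomial intervals that cover counting error alone and are not given for chains. The intervals of the region hold the whole-list value for the 3 overlap shares and for the nasal peaks in the first 10% of the list, and do not hold it for the Class I share (4.76% against 24.6%) and for the rib peaks in the first 10% of the list. The whole-list value for rib peaks in the first 10% mixes both classes, while the region is nearly all Class II.

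Median widths over all members of each list differed little from the whole lists, while rib peaks without a nasal partner had a higher median here. The median was 186 bp in rib and 187 bp in nasal, against 180 bp and 182 bp in the whole lists. Rib peaks with a nasal partner had a median width of 179 bp and those without one 210 bp, against 180 bp and 181 bp in the whole rib list. Widths in the region ran from 30 to 350 bp in the 24 with a partner and from 73 to 457 bp in the 39 without one. This split was made after the data were seen, and the difference was not tested. Nasal peaks with a rib partner had a median of 187 bp and those without one 189 bp, against 183 bp and 179 bp in the whole nasal list.

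The borders of the region cut through different surroundings. Upstream, the outermost rib member lay 129 kb inside the border and the next rib peak 541 kb outside it, and for the nasal list these distances were 758 and 902 kb. Downstream, the outermost rib member lay 12.7 kb inside the border and the next rib peak 16.4 kb outside it, and for the nasal list 17.2 and 16.4 kb. Peaks therefore went on past the downstream border, where the rule for members ended the count.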

How the data were processed

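Chondrocytes were fixed with 1% formaldehyde for 10 minutes, 20000000 cells and 9 μg of antibody entered each precipitation, and DNA of 100 to 600 bp was amplified over 18 PCR cycles, per the labels' protocols. The authors deposited 4 lists of peak positions, chromosome, start and end, on mm9 per the submitters' processing notes. Each list is named with FDR and the number 1, without a unit, and how that threshold was computed is not stated. Not given in the sources used here: aligner, peak caller, control and class definition. The threshold decides every absence above. Starts are printed 1-based. The last Class I line carries extra fields beside its position, which were not used. Overlap meant at least 1 shared bp, and a comparison with bedtools 2.31.1 found 0 differing peaks. Densities used the span between the outermost peaks of a chromosome. Shares other than those in chains have Clopper-Pearson intervals and densities exact Poisson intervals. Named peaks were those nearest to and farthest from the start, the 5 earliest of each list, all Class I peaks, chains, the widest peaks, border peaks and peaks within 10 kb of the start. Other peaks are named to account for all members and were chosen after their values were seen. Members, lists and summaries were chosen with earlier results of these data known. The counts within 1 kb or 10 kb of the other list, of centres within 50 bp, of widths by partner and by part of the list were added after the data were seen. Routines were tested on simulated peaks. Python 3.11.15, numpy 2.4.6, scipy 1.17.1 and matplotlib 3.10.9 were used. Sequences and motifs of the peaks were not analysed here.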

Additional observations from a re-analysis of the deposited data

How the results depend on the processing

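No paired analysis was possible because each tissue has 1 library. Of 55 recomputed values, 45 stayed within the 95% interval of the reported value or, for chains, near its count, and 10 did not. The 45 include values that had little room to move. Merging peaks of one list that share bases, or counting any base inside the region, left every value as it was. The Class I overlap was judged against an interval of 9.43% to 99.2%, from 3 peaks. The share of nasal peaks overlapped by rib peaks was 56.2% where a pair needed 50% of each peak in common and 90.6% when edges up to 1 kb apart counted, as these settings narrow or widen what counts. With the first 50% of each list, the density was 16.2 rib and 8.80 nasal peaks per Mb, as fewer peaks enter. The Class I overlap was 100% with the first 50% of each list (2 peaks) and 100% in the region narrowed by 100 kb at both ends (1 peak). The share of rib peaks upstream was 39.1% with equal lengths on both sides of the start. Chains depended on the gap. With at most 5 kb there were 2 rib chains and 0 nasal chains, and with at most 50 kb there were 3 rib chains, as chains join. The read depth is unknown, so weak sites may be missing from either list.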

Other observations

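Some neighbouring places of the rib list belonged to peaks of the region. Of the 63 rib peaks, 19 had a place within 10 of the place of another member, and 6 stood between places 20825 and 20846, a stretch of 22 places at about 75.3% of the list. Along those 6 places the positions ran in reverse, with the first 433 kb downstream and the last 1575 kb upstream of the Sox9 start, and 1 of the 6 met a nasal peak. Among the members of the rib list, 39.7% had a peak of the same chromosome no farther than 2.16 Mb away among the 10 places before or after, against 30.8% of the whole rib list. In the nasal list these shares were 15.6% of the members and 32.6% of the whole list. Neighbouring places were noticed after the data were seen, and what orders the lists was not tested.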
